A study of Mus musculus with 8 samples.

Results

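The open chromatin of wild-type microglia was described from 4 ATAC-seq libraries, out of 8 libraries in the series, chosen by their genotype label alone. The other 4 libraries came from Nlrp3 knockout mice and were used here only in that their peaks had been merged into the deposited peak list. The wild-type mice were on a C57BL/6N background and received no treatment that the labels name. The labels give no age or sex for the mice. Cells were taken from dissociated forebrain after myelin removal, on magnetic columns for CD11b, an integrin chain that microglia share with border macrophages, monocytes and granulocytes. Whether the replicates are separate animals is not stated, so their spread may be technical in part.

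Microglia are the resident macrophages of the brain. ATAC-seq uses a transposase that inserts adapters where DNA is not wrapped tightly around nucleosomes, so tags pile up at active promoters and enhancers. In macrophages the factor PU.1 opens many of the enhancers that other factors then use, and SALL1 is a factor that marks microglia among macrophages. Promoters of broadly used genes are often rich in CG dinucleotides and open in most cell types, while enhancers away from promoters tend to differ between cell types. In a bulk library, fewer cells of a type and less accessibility per cell cannot be told apart.

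There were 67822 listed peaks, and the median peak was 268 bp wide. The 4 libraries held from 11872703 to 15521580 tags, of which 17.5%, 9.79%, 12.8% and 14.4% fell in listed peaks in replicates 1 to 4. Levels are given as CPM, counts per 1e+06 tags in all listed peaks, and as CPM per kb of peak where peaks of different width are compared. A single tag was worth between 0.446 and 0.677 CPM, so a value of a few CPM rests on few tags. The 5547 peaks found in the knockout list alone held 2.39% ± 0.12 (SD, n = 4) of the wild-type tags.

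Promoters were the most accessible class of peak. Peaks within promoters numbered 13206, which was 19.5% of peaks and 20.7% of the covered bases, and they held 30.3% ± 2.31 (SD, n = 4) of the tags. The share was 27.4%, 29.8%, 32.7% and 31.4% in replicates 1 to 4, above the share of covered bases in each library. Introns had the most peaks, 29073 or 42.9%, and held 36.1% ± 1.27 of the tags. The 20579 intergenic peaks were 30.3% of the list and held 26.9% ± 1.04 of the tags. Replicate 1 had the lowest promoter share and the highest intron and intergenic shares, and replicate 3 the reverse.

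Per kb of peak, the median promoter had 54.8 CPM, against 29.8 CPM for introns and 31.4 CPM for intergenic peaks. The median promoter density over the median intron density was 1.58, 1.71, 2.00 and 1.90 in replicates 1 to 4, a mean ratio of 1.798 ± 0.19. The quartiles of promoters spanned 30.4 to 101.7 CPM per kb, and those of introns 21 to 51.4 CPM per kb, so the classes overlapped widely. Of the promoter peaks, 22.2% lay in the densest 10% of all peaks, against 6.75% of intron peaks and 7.73% of intergenic peaks. Exons had the lowest median density among the annotated classes, at 26.6 CPM per kb.

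**Figure D1:**
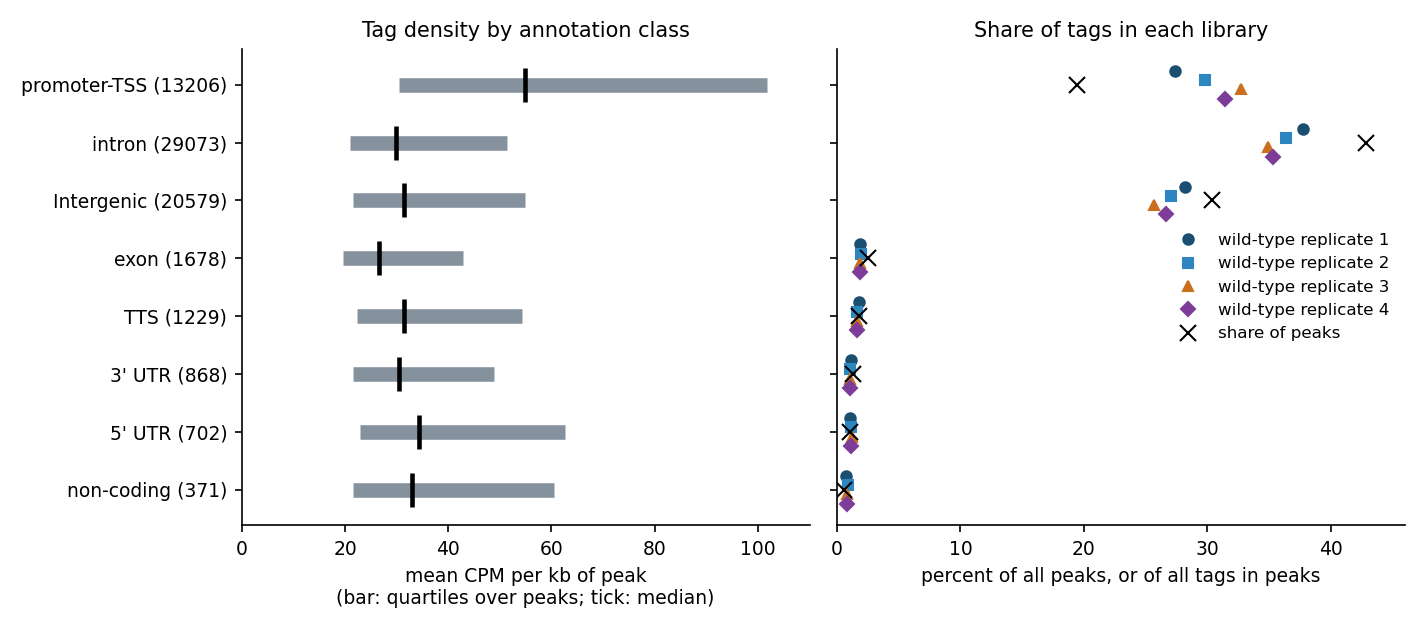
Left, mean CPM per kb of peak for the peaks of each deposited annotation class (bars span the quartiles over peaks, ticks mark medians, numbers of peaks in brackets). Right, the percent of peaks (crosses) and of tags in each of the 4 libraries (symbols): promoters hold 19.5% of peaks and 27.4% to 32.7% of tags.

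Distance from a start site ordered the peaks in the same way. Peaks within 1 kb of a start site were 25.8% of the list and held 35.8% ± 2.42 of the tags, at a median of 45.7 CPM per kb. Medians then lay close together at 30.9 CPM per kb from 1 to 10 kb, 30.7 CPM per kb from 10 to 100 kb and 29.1 CPM per kb beyond 100 kb. The largest bin, 10 to 100 kb, had 28987 peaks and 36.7% ± 1.52 of the tags.

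Tags were spread over many peaks. The median peak had 9.70 CPM, the 99th percentile was 70.7 CPM, and 13407 peaks (19.8%) held 50% of the tags. The strongest 10% of peaks held 33.0% of the tags. The weakest 50% held 20.9%.

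Promoter sequence was set beside these values through 32851 RefSeq promoter windows of the GRCm38.p6 build, each running from 250 bases before a start site to 50 bases after it, for 27025 gene symbols. A listed peak overlapped 11439 windows (34.8%) by at least 50 bases. Windows with a peak had a median of 22 CG dinucleotides and a GC content of 61.7%, and windows without a peak a median of 4 and 48.7%. The share of windows with a peak was 2.39% at 0 or 1 CG, 6.48% at 2 to 4, 16.6% at 5 to 9, 55.8% at 10 to 19 and 77.0% at 20 or more. These shares describe windows that neighbour one another and share start sites, and carry no test.

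**Figure D2:**
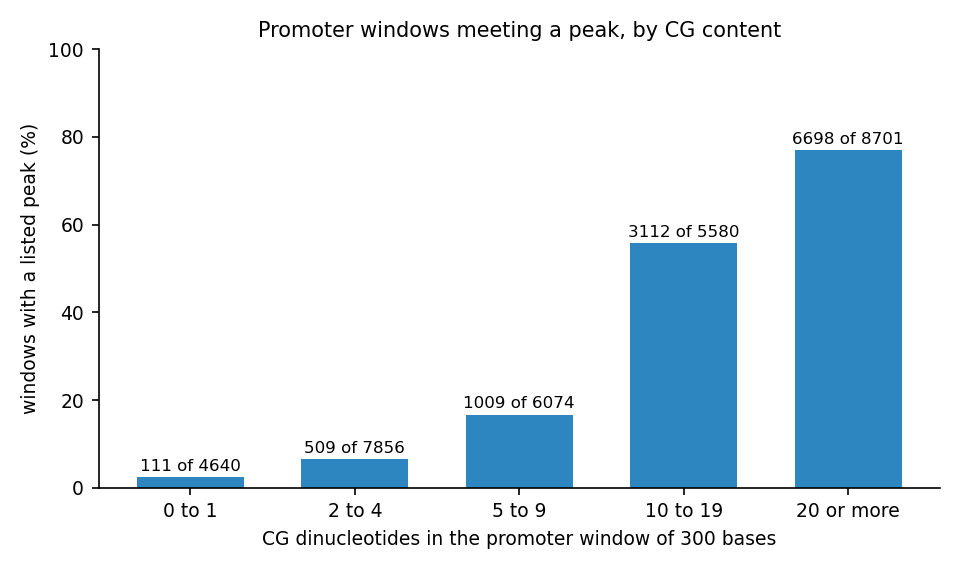
Percent of RefSeq promoter windows of 300 bases that overlap a listed peak by at least 50 bases (bars), by the number of CG dinucleotides in the window, with counts above the bars. The share is 2.39% in the lowest bin and 77.0% in the highest.

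The 6 promoters printed here show that range. They run 5′ to 3′ on the strand of the gene, with every CG dinucleotide in capitals, and come from RefSeq (GRCm38.p6). Rfx1, a transcription factor gene, had one of the strongest promoter peaks outside repeats. P2ry12 (a purine receptor of microglia), Cx3cr1 (the fractalkine receptor) and Sall1 are microglial genes. Gad1, which makes GABA in inhibitory neurons, and the olfactory receptor gene Olfr16 had no listed peak.
Rfx1, chr8:84066586-84066885, + strand: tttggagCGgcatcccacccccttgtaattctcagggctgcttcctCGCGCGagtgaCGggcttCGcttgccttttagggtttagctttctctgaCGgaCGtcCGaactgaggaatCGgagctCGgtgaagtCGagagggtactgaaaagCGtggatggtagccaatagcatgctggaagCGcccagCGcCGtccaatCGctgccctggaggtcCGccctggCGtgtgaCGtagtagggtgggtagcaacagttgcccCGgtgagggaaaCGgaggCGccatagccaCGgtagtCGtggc
Sall1, chr8:89042813-89043112, - strand: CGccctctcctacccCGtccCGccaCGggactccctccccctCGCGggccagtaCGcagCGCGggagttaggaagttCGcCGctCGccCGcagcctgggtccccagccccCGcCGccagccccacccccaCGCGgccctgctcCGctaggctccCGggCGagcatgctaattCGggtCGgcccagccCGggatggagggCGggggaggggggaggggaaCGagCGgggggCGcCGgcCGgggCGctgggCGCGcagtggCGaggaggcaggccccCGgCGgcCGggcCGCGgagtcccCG
Cx3cr1, chr9:120068247-120068546, - strand: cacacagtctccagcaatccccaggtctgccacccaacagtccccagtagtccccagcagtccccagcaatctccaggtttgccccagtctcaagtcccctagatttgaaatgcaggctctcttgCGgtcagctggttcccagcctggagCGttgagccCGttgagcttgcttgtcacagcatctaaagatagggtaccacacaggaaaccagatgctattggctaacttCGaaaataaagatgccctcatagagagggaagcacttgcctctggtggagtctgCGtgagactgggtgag
P2ry12, chr3:59262936-59263235, - strand: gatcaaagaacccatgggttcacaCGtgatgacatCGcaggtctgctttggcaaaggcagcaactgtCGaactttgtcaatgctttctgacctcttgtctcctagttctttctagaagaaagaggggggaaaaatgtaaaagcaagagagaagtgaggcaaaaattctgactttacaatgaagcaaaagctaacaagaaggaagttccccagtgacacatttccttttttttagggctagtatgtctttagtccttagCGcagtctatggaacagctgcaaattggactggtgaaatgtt
Gad1, chr2:70561879-70562178, + strand: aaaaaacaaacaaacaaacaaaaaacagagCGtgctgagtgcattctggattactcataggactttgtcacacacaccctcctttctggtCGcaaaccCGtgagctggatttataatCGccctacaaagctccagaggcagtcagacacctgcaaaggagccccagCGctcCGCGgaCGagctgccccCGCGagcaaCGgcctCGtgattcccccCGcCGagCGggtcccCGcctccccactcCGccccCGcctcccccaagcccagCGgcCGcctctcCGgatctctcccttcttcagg
Olfr16, chr1:172956518-172956817, + strand: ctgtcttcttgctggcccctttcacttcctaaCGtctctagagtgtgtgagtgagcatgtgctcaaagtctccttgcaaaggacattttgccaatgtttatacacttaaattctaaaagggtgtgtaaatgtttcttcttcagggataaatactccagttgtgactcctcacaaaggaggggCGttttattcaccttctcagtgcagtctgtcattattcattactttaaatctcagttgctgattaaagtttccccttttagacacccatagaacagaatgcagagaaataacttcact

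The Rfx1 window held 25 CG dinucleotides and its peak covered 282 of the 300 bases, at 299.6 CPM per kb. The Sall1 window, one of 3 for that gene, held 39 CG dinucleotides and lay wholly inside a peak of 138.0 CPM per kb. The deposited table calls that peak an intron of Sall1, since it measures 1212 bp from another start site of the gene. Cx3cr1 held only 5 CG dinucleotides and yet had a promoter peak of 213.0 CPM per kb, overlapping 183 bases of the window. P2ry12 held 4 CG dinucleotides and its promoter peak reached 51.1 CPM per kb. Gad1 held 21 CG dinucleotides and no peak was listed at its window, and Olfr16 held 2. CG content therefore went with a peak across all windows, but these microglial and neuronal examples lay on both sides of it.

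The 38 windows of microglia identity genes, for 30 of the 40 genes, had a median of 6 CG dinucleotides, close to the median of 7 over all windows. Of these 38 windows, 31 (81.6%) met a peak, against 34.8% of all windows. The 25 windows of housekeeping genes had a median of 22 CG dinucleotides and 24 of them met a peak. The 17 windows of neuronal genes had a median of 13 and 1 met a peak, and the 944 windows of olfactory receptor genes had a median of 1 and 1 met a peak.

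Short motifs of 10 factor families were searched on both strands of the windows, none of which contains another. GGGCGG, read by SP and KLF factors, was in 66.8% of windows with a peak, 19.02% of windows without and 35.7% of all windows. The NRF1 motif GCGCANGCG was in 15.04% of windows with a peak and 1.56% of those without, against 6.25% of all windows. Both motifs hold CG, which itself went with peaks. CCAAT, read by NFY, was in 39.3% of windows with a peak and 36.4% of those without, but in 68.8% of the 1144 densest windows. Among those densest windows GGGCGG was in 76.9% and GCGCANGCG in 10.2%.

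Motifs of factors known from macrophage enhancers, and separately that of CTCF, were also counted. The PU.1 motif GAGGAAGT was in 3.20% of all windows, 3.81% of windows with a peak, 5.16% of the densest windows and 4 of the 38 windows of microglia identity genes. The AP-1 motif TGANTCA was in 4.49% of windows with a peak and 9.58% of those without. The C/EBP motif TTGCNNAA was in 7.78% against 12.4%, the RUNX motif TGTGGTT in 3.602% against 6.16%, and the IRF motif, GAAA repeated after any pair of bases, in 2.97% against 3.69%. CTAAAAATA, the MEF2 motif, was in 0.236% against 0.668%. The CTCF motif AGGGGGCGC, which also holds CG, was in 2.52% against 0.565%. Peaks outside promoters were not searched here.

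All 4 PU.1 matches among the microglia identity promoters are shown with 30 bases on either side and the match in capitals. C1qc encodes a chain of complement C1q, Hpgds a prostaglandin D synthase, Slco2b1 an organic anion transporter and Rapgef5 an exchange factor for Ras-like GTPases.
C1qc, - strand: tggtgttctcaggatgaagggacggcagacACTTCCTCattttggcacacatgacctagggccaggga
Hpgds, - strand: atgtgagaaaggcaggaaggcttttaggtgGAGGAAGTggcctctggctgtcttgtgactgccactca
Slco2b1, - strand: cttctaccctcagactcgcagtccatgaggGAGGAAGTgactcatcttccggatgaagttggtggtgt
Rapgef5, + strand: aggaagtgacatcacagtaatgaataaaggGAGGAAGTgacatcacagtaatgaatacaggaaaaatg

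The C1qc match began 195 bases before the start site, on the strand opposite to the gene, and its promoter peak had 243 CPM per kb. The Hpgds match began 49 bases before the start site, and its promoter peak had 167 CPM per kb. The Slco2b1 match began 7 bases after the start site, in a window whose peak had 65.6 CPM per kb. The Rapgef5 match began 58 bases before the start site, in a window that met no listed peak. The strongest peak was the promoter for C1qc, at 62.7 ± 5.75 CPM, and Hpgds, at 46.4 ± 8.43 CPM (SD, n = 4), and an intron for Slco2b1 and Rapgef5.

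The 5 genes that mark microglia were all accessible, with most of their tags outside the peaks the table calls promoters. That alone did not set them apart, since 69.6% of tags lay outside promoter peaks over all genes with a peak. P2ry12 had 6 peaks, Tmem119 11, Sall1 42, Csf1r 11 and Cx3cr1 12. Their summed CPM were 139.1 ± 8.49, 149.6 ± 10.5, 603.5 ± 25.6, 250.4 ± 13.9 and 215.8 ± 9.66 in that order (SD, n = 4), against a median of 36.8 CPM over the 16095 genes with a peak. All 5 lay between percentiles 89.8 and 99.8 of those genes. All 5 markers of the labelled cell type were thus present.

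Csf1r encodes the receptor for the survival factors CSF1 and IL-34. Its strongest peak lay in an intron, 3006 bp from the start site (chr18:61108419-61108738), with 116.2, 115.1, 90.5 and 117.7 CPM in replicates 1 to 4. Its mean was 109.9 ± 12.95 CPM, or 343 CPM per kb, denser than 99.8% of all peaks. Replicate 3 was the lowest and the other 3 lay within 3 CPM of each other. The promoter peak of Csf1r had 3.86, 8.13, 6.54 and 6.24 CPM, a mean of 6.19 ± 1.76 CPM, so the intronic peak was higher in every library. Upstream peaks at -6399 bp and -14776 bp had 34.3 ± 2.08 and 32.1 ± 2.41 CPM.

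P2ry12 showed the same arrangement. An intronic peak 1992 bp from the start site (chr3:59260854-59261132) had 91.1, 71.1, 71.99 and 84.3 CPM in replicates 1 to 4, a mean of 79.6 ± 9.74 CPM. Its promoter peak had 16.4, 18.3, 15.3 and 13.8 CPM. The intronic peak exceeded the promoter peak in each library, and none of the other 4 peaks of the gene had a mean above 15.2 CPM.

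Sall1 had the widest spread of sites. Of its 42 peaks, 30 lay more than 100 kb from the start site, all upstream. The strongest was the CG-rich site inside the gene described above (chr8:89042697-89043204), with 70.4, 71.1, 69.8 and 69.1 CPM, the smallest spread of any marker peak above 30 CPM. A distant upstream cluster followed, with 65.01 ± 3.45 CPM at -348743 bp, 57.1 ± 9.32 CPM at -352580 bp and 54.5 ± 3.32 CPM at -360282 bp. The peak at -352580 bp was lowest in replicate 2, at 43.3 CPM, against 59.4 to 63.8 CPM in the others. Another peak in the gene, at 413 bp, had 40.0 ± 5.32 CPM. The peak the table calls the Sall1 promoter had only 10.1 ± 2.24 CPM. Far peaks carry the name of the nearest start site, which does not show that they act on Sall1.

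Cx3cr1 was the marker whose strongest peak was at its promoter. That peak (chr9:120068168-120068429) had 61.2, 47.4, 51.3 and 63.3 CPM, a mean of 55.8 ± 7.69 CPM. Intronic peaks at 13337 bp and 9362 bp followed with 45.0 ± 7.202 and 39.7 ± 6.63 CPM. Their ranges over the 4 libraries, 37.1 to 54.5 and 33.9 to 49.1 CPM, overlapped that of the promoter. Within each library, however, the promoter peak was the highest of these 3 peaks. The order of the intronic peaks was reversed in replicate 3.

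Tmem119, a transmembrane protein found on microglia, had a promoter peak and a distal peak of like height. The promoter peak at -98 bp had 49.2, 40.0, 38.2 and 40.1 CPM, a mean of 41.9 ± 4.96 CPM. The peak 13193 bp beyond the start site had 55.0, 44.0, 37.6 and 51.3 CPM, a mean of 47.0 ± 7.71 CPM. The ranges overlapped.

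**Figure D3:**
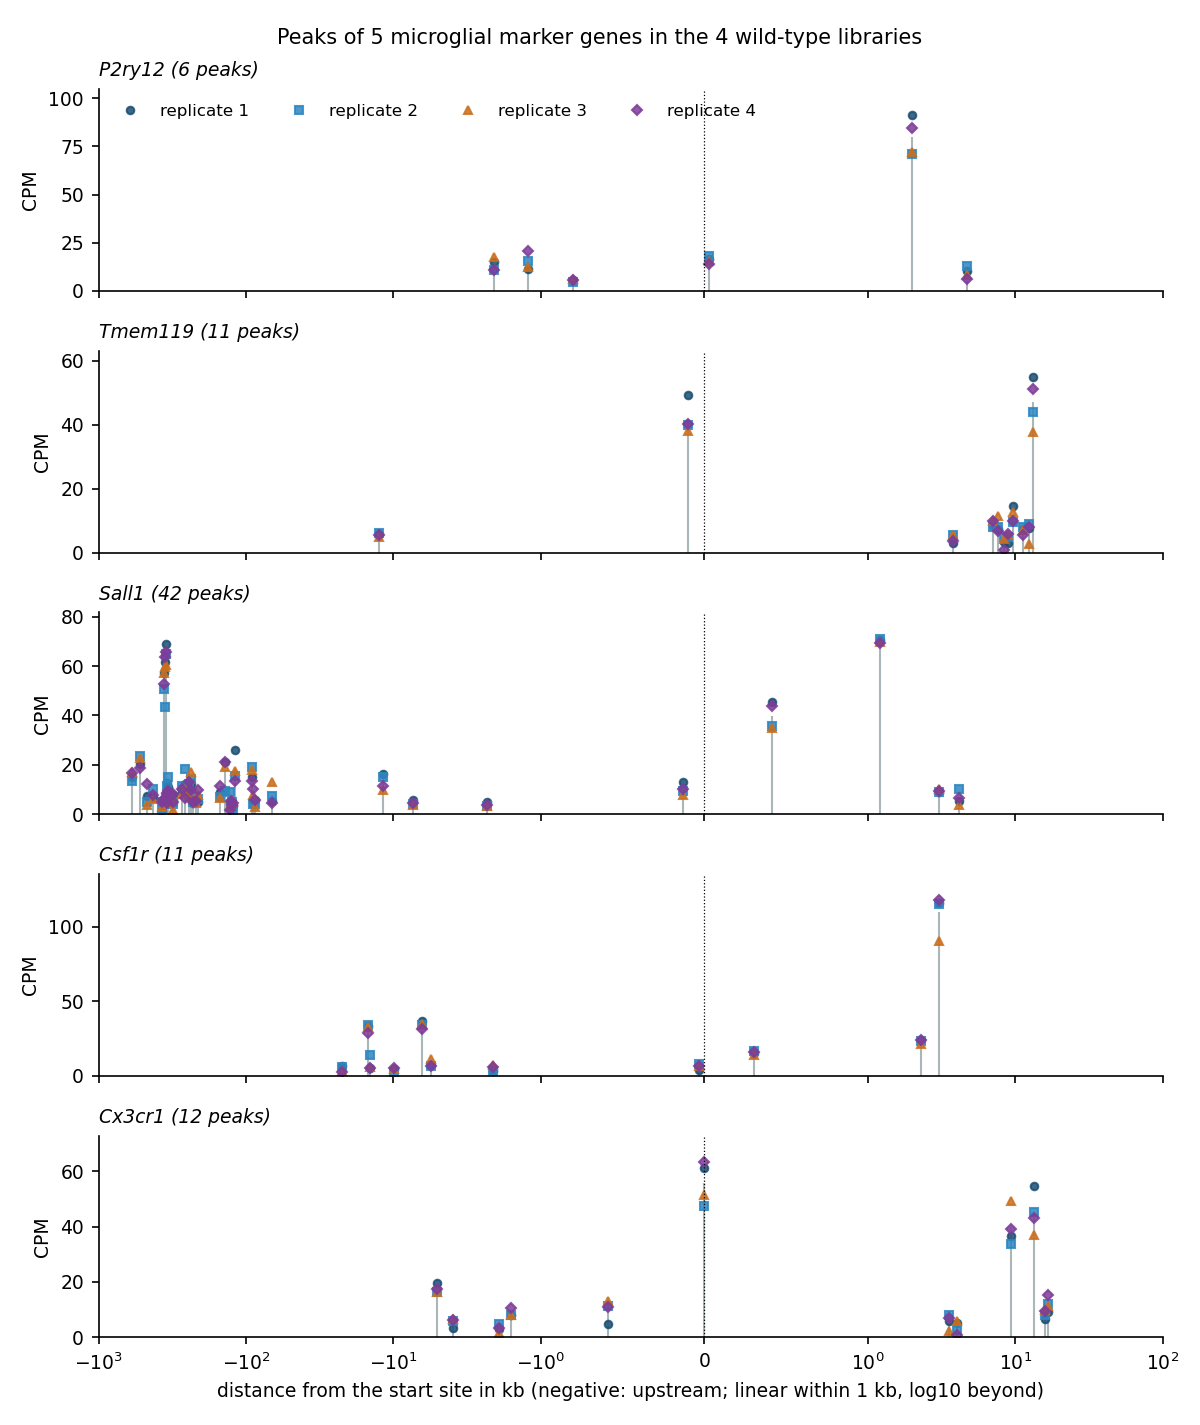
CPM of every peak of the 5 marker genes in each of the 4 wild-type libraries (symbols; grey lines rise to the mean), by distance from the start site in kb on an axis that is linear within 1 kb and log10 beyond. The highest peaks of Csf1r and P2ry12 lie inside the gene, those of Cx3cr1 at the start site, and Sall1 has a group beyond 100 kb upstream.

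Gene lists were described by how many members had a peak, beside the 63.8% of 21896 protein-coding RefSeq genes that had one and the 45.7% that had a promoter peak. All 40 microglia identity genes had a peak and 35 had a promoter peak. Their median summed CPM was 169, and 24 of the 40 lay above the 90th percentile of all genes with a peak, where by construction 10% of genes lie. The highest were Sall1 at 603.5 ± 25.6 CPM, Entpd1 (the ectonucleotidase CD39) at 527 ± 12.2 CPM, Lgmn (the lysosomal protease legumain) at 518 ± 25.8 CPM and Tgfbr1 (a TGF-beta receptor) at 411 ± 19.6 CPM. The strongest of the 19 Tgfbr1 peaks was intergenic, at -37542 bp, with 125.8, 114.4, 94.3 and 110.6 CPM. The lowest were C1qa at 75.05 CPM and Trem2, the lipid receptor of disease-associated microglia, at 57.6 ± 6.76 CPM.

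Myeloid transcription factors had still higher sums. All 34 had a peak, 32 had a promoter peak, and 26 lay above the 90th percentile, with a median of 261 CPM. A sum grows with the number of peaks. By the density of the strongest peak instead, the members above the 90th percentile of all genes with a peak numbered 18 microglia identity genes, 13 myeloid factors and 5 housekeeping genes. By that measure they numbered 12 immediate early genes, 2 disease-associated genes, 2 inflammasome genes, 5 cytokine and chemokine genes, 0 MHC class II genes and 3 glutamine and glutamate genes. Runx1 led with 61 peaks and 809 ± 34.5 CPM, at 849.9, 787.6, 774.4 and 824.2 CPM in replicates 1 to 4. Etv6 had 678 ± 16.5 CPM over 47 peaks, Smad3, which carries TGF-beta signals, 626 ± 22.4 CPM over 32 peaks, and Sall1 followed. No single Runx1 peak exceeded 44.3 CPM, so its sum came from many moderate sites. Spi1, the gene of PU.1, had 11 peaks, led by its promoter with 62.7, 63.7, 57.8 and 55.3 CPM.

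Microglia identity genes and myeloid factors held a larger share of their tags outside promoter peaks than all genes with a peak. That share was 83.0% for microglia identity genes, 87.3% for myeloid factors, 62.7% for housekeeping genes and 69.6% for all genes. It was also high where few members had a promoter peak, at 98.7% for neuronal genes. Where a gene had a promoter peak, the median of its promoter tags was 36.4 CPM for microglia identity genes, 36.4 CPM for myeloid factors, 31.8 CPM for housekeeping genes and 21.7 CPM for all genes. Those medians were 1.68, 1.68 and 1.47 times that of all genes. Tags in all other peaks had a median of 129 CPM for microglia identity genes, 205 CPM for myeloid factors, 22.9 CPM for housekeeping genes and 17.6 CPM for all genes. These were 7.29, 11.6 and 1.30 times the median of all genes. High ratios were not confined to the microglial and myeloid lists. Immediate early genes reached 18.6 times and cytokine and chemokine genes 6.21 times. Glutamine and glutamate genes reached 3.79 times, and endothelial and mural genes 3.75 times. Neuronal and astrocyte genes had 0.990 and 0.865 times. The median for microglia identity genes outside promoters was 140.0, 132.7, 121.3 and 126.9 CPM in replicates 1 to 4, and that of housekeeping genes 23.1, 19.6, 25.1 and 22.7 CPM. The 2 sets of library values did not overlap, and the order was the same in each library.

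The site of the strongest peak differed likewise. The strongest peak was at a promoter for 46% of all genes with a peak. It was at a promoter for 20 of 30 housekeeping genes, 11 of 40 microglia identity genes and 10 of 34 myeloid factors. Housekeeping genes had a median of 3 peaks, microglia identity genes 10 and myeloid factors 19. Over all genes with a peak, the share led by a promoter fell as peaks increased. It was 50.1% at 2 to 4 peaks, 23.8% at 10 to 19 and 16.5% at 20 or more. A low share was therefore not particular to the microglial and myeloid lists. All 30 housekeeping genes had a peak, 27 had a promoter peak, and 5 lay above the 90th percentile, among them Ywhaz at 331 ± 3.504 CPM, Actb at 301 ± 8.72 CPM and Rplp0 at 182 ± 7.04 CPM. The strongest Gusb peak was its promoter, with 73.3, 71.8, 75.8 and 68.2 CPM, out of a sum of 125 CPM over 4 peaks.

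Immediate early genes, which are transcribed within minutes of a stimulus, were among the most accessible genes of all. All 20 had a peak, 18 had a promoter peak and 17 lay above the 90th percentile, with a median of 364 CPM. Jun had 33 peaks and 746 ± 83.4 CPM, Fos 35 peaks and 641 ± 30.2 CPM, Jund 14 peaks and 592 ± 170 CPM and Dusp1, a phosphatase of MAP kinases, 26 peaks and 558 ± 42.3 CPM. The Jun promoter had 115.7, 138.1, 123.8 and 126.2 CPM. Jund differed between libraries: its strongest peak, 4968 bp from the start site, had 187.5 CPM in replicate 1 and 99.3 to 114.6 CPM in the other 3. Tissue was dissociated with a kit before the assay, and its part in these values was not tested.

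Disease-associated and inflammatory gene lists had lower medians of summed CPM than microglia identity genes. Of 24 disease-associated microglia genes, 23 had a peak, 18 a promoter peak and 6 lay above the 90th percentile, with a median of 75.6 CPM. Cd9 led with 502 ± 48.7 CPM, then the cathepsins Ctsd at 347 ± 25.3 CPM and Ctsb at 243 ± 15.7 CPM, and Csf1 at 188 ± 31.3 CPM. Gpnmb had no listed peak, and Apoe, the lipid carrier, had 50.6 ± 4.26 CPM over 7 peaks of which none exceeded 11.2 CPM. Of 15 cytokine and chemokine genes, 14 had a peak, at a median of 118 CPM. Of these, 4 lay above the 90th percentile, with Ccl2 at 223.5 ± 20.5, Il1a at 207 ± 9.89, Ccl3 at 189.8 ± 9.74 and Il6 at 157 ± 14.2 CPM. Their strongest peaks had a median density of 152 CPM per kb. That median was 171 CPM per kb for microglia identity genes and 105 CPM per kb for disease-associated genes. Ptgs2 had no listed peak. All 7 MHC class II genes had a peak and a promoter peak, at a median of 53.6 CPM, led by Cd74 at 147 ± 9.06, H2-Aa at 97.6 ± 4.26, H2-Ab1 at 72.6 ± 7.49 and H2-Eb1 at 53.6 ± 6.37 CPM.

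Accessibility of the inflammasome genes ranged widely. All 15 had a peak, 9 had a promoter peak and 3 lay above the 90th percentile. These were Nek7, a kinase that binds NLRP3, at 270 ± 11.5 CPM, the DNA sensor gene Aim2 at 194 ± 16.01 CPM and Nlrp3 itself at 159 ± 15.4 CPM. P2rx7, an ATP-gated channel, followed at 125 ± 12.8 CPM. Casp1, the protease that inflammasomes activate, and the sensor gene Naip5 had a single peak each, of 6.02 ± 1.95 and 6.26 ± 2.04 CPM, below the median peak of 9.70 CPM. Nlrp3 had 8 peaks, led by a promoter peak with 36.2, 39.3, 31.6 and 35.7 CPM and a second promoter peak with 32.8, 37.9, 29.4 and 30.8 CPM. All 17 genes of glutamine and glutamate handling had a promoter peak, and 7 lay above the 90th percentile. Glul, glutamine synthetase, led with 452 ± 35.1 CPM, 82.0, 66.4, 80.2 and 93.7 of them at its promoter in replicates 1 to 4, followed by Slc1a3 at 302 ± 36.1, Slc38a1 at 265 ± 11.5 and Slc38a2 at 227 ± 14.9 CPM.

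**Figure D4:**
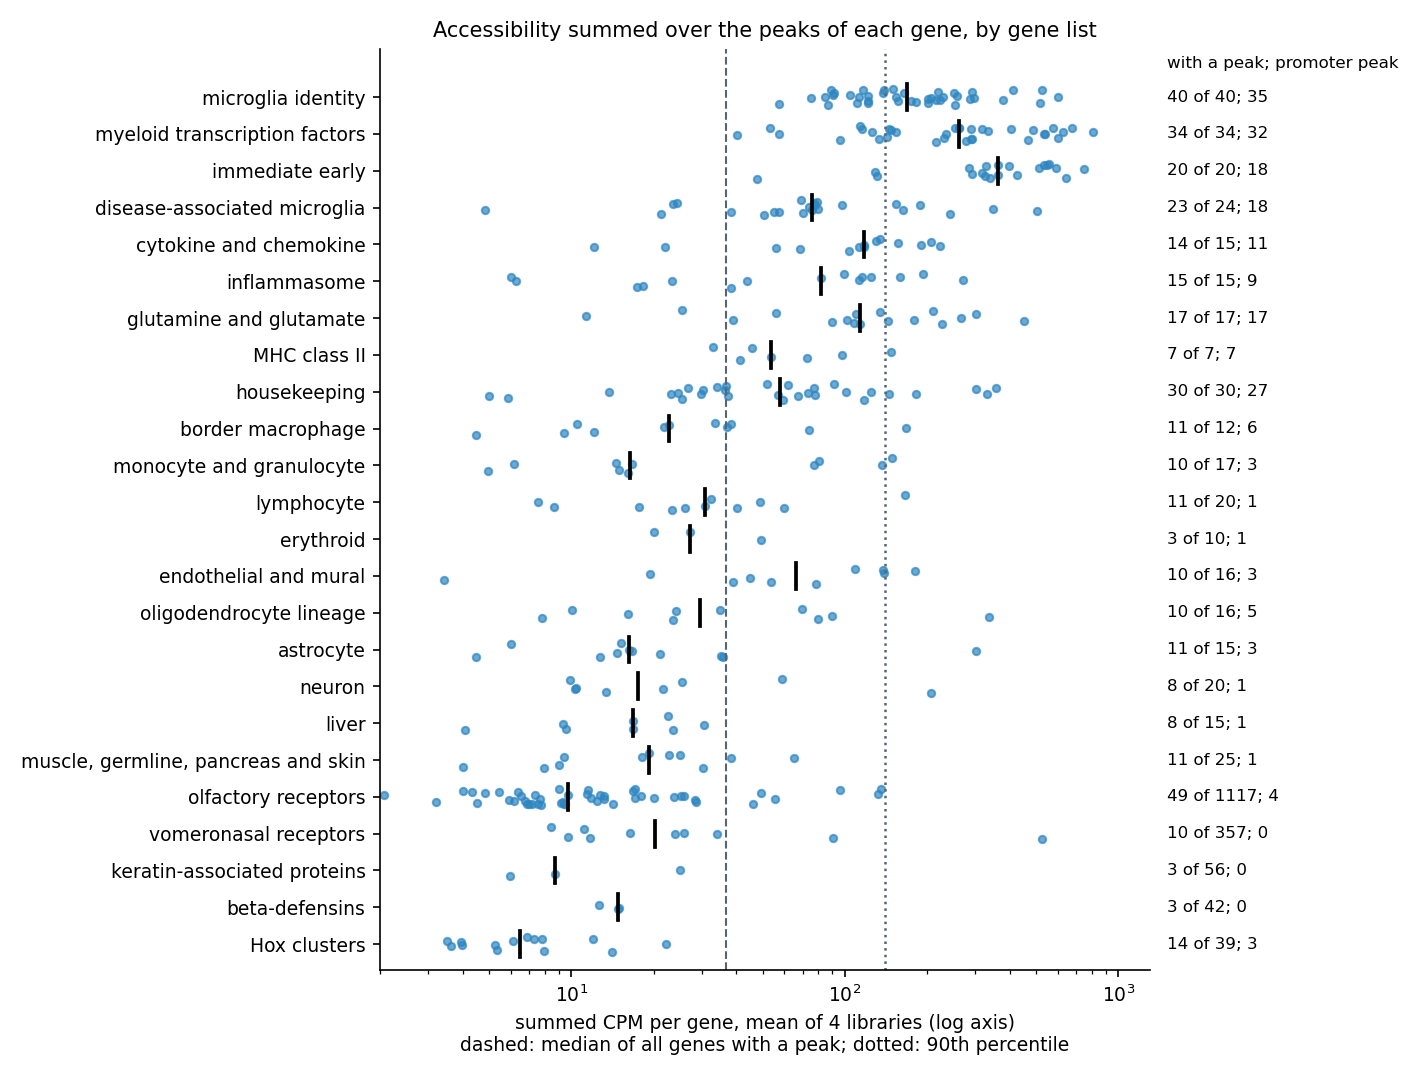
Summed CPM of each list member with a peak (points, mean of the 4 wild-type libraries, log axis), list medians (black ticks), and on the right the number of members with a peak of all members and the number with a promoter peak. The 40 microglia identity genes have a median of 169 CPM, against 36.8 CPM for all genes with a peak (dashed line).

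Genes of other brain cells were largely closed at their promoters. Of 20 neuronal genes, 8 had a peak and 1, Tubb3, a promoter peak, which held 17.7 CPM per kb. Syn1, Stmn2, Slc17a6, Gad1, Gad2, Slc32a1, Neurod6, Map2, Nefl, Nefm, Dcx and Grin1 had no listed peak. The sole neuronal gene above the 90th percentile was Celf4, with 206 ± 20.3 CPM over 21 peaks, none at its promoter and the strongest at -129406 bp. After it came Camk2a at 58.9 ± 5.03, Rbfox3 at 25.4 ± 3.83 and Snap25 at 21.6 ± 3.6 CPM. The 8 neuronal genes with a peak had a median of 17.5 CPM.

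Of 15 astrocyte genes, 11 had a peak and 3 a promoter peak, at a median of 16.3 CPM. Slc1a3, a glutamate transporter, stood out with 302 ± 36.1 CPM over 21 peaks, while its promoter had 22.01 CPM per kb. Slc4a4 had 35.8 ± 7.42, S100b 35.3 ± 3.93 and Aldh1l1 21.04 ± 4.78 CPM, and Aldoc, Sox9, Mlc1 and Atp13a4 had no listed peak. Of 16 oligodendrocyte genes, 10 had a peak and 5 a promoter peak, at a median of 29.5 CPM. Mbp, myelin basic protein, had 337 ± 12.04 CPM over 19 peaks, led by an intronic peak with 55.4, 58.2, 49.1 and 55.3 CPM, while its promoter had 12.3 CPM per kb. Opalin at 89.6 ± 4.90, Cnp at 79.7 ± 14.8 and Myrf at 69.9 ± 4.16 CPM followed, and Olig2, Sox10, Ugt8a, Gpr17 and Nkx2-2 were among those with no listed peak.

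Of 16 endothelial and mural genes, 10 had a peak and 3 a promoter peak, at a median of 66.1 CPM. Vwf had 180.5 ± 5.04, Kdr 138.5 ± 12.9, Pecam1 137 ± 9.36 and Flt1 109 ± 9.03 CPM, and Tek, Tie1, Slco1c1, Ly6c1, Rgs5 and Kcnj8 had no listed peak. Celf4, Slc1a3, Mbp and Vwf thus had large sums from peaks away from the promoter, which the table assigns by the nearest start site. Of these, 13 of 21 Celf4 peaks, 15 of 21 Slc1a3 peaks and 16 of 19 Mbp peaks lay within the gene.

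Other CD11b-positive and blood cells were sought with 4 lists. Of 12 border macrophage genes, 11 had a peak and 6 a promoter peak, at a median of 22.7 CPM. Stab1 had 167 ± 15.6, Siglec1 73.9 ± 8.38, Cd163 38.4 ± 7.03 and Cbr2 37.1 ± 3.87 CPM, and Cd209f had no listed peak. Of 17 monocyte and granulocyte genes, 10 had a peak and 3 a promoter peak, at a median of 16.4 CPM. Csf3r had 148.5 ± 5.28, Ly6c2 136 ± 52.7, Plac8 80.7 ± 10.2 and Vcan 77.4 ± 16.3 CPM, and S100a8, Ly6g, Mpo, Camp, Retnlg and Chil3 were among those with no listed peak. Ly6c2 held no peak in its own body, and its 3 peaks began 25017 bp from its start site.

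Of 20 lymphocyte genes, 11 had a peak and 1 a promoter peak, at a median of 30.7 CPM. Klrb1c had 166 ± 11.6, Zap70 60.1 ± 5.40, Cd79b 48.9 ± 3.17 and Gata3 40.5 ± 3.88 CPM. Cd3e, Cd3g, Cd8a, Cd8b1, Cd79a, Pax5, Ncr1 and Nkg7 were among those with no listed peak. Of 10 erythroid genes, 3 had a peak, among them Klf1 at 27.1 ± 5.21 and Epor at 19.99 ± 4.23 CPM, and Gata1, Hba-a1, Hba-a2, Hbb-bs, Hbb-bt, Alas2 and Slc4a1 had none. The summed levels of these 4 lists over the libraries were 393 to 470 CPM for border macrophages, 494 to 572 CPM for monocytes and granulocytes, 455 to 476 CPM for lymphocytes and 87.8 to 104.6 CPM for erythroid genes. The microglia identity list, with 40 members against 12, 17, 20 and 10, summed to between 7930 and 8594 CPM. Such totals grow with the size of a list. Per gene with a peak, its median was 169 CPM, against 22.7, 16.4, 30.7 and 27.1 CPM for these 4 lists in the same order.

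Genes of unrelated organs had a peak in a share nearer to the 63.8% of all protein-coding genes than gene families such as the olfactory receptors. Of 15 liver genes, 8 (53.3%) had a peak and 1 a promoter peak, at a median of 16.8 CPM, with Apoa1 at 30.6 ± 0.92, Alb at 23.4 ± 4.35, Apoa2 at 22.6 ± 3.599 and Cyp7a1 at 16.8 ± 1.61 CPM. Fga, Fgb, Cyp2e1, Cyp3a11, Tat, Ahsg and Serpina1a had none. Of 25 muscle, germline, pancreas and skin genes, 11 (44%) had a peak and 1 a promoter peak, at a median of 19.2 CPM, with Myog at 64.9 ± 9.45, Cela1 at 38.3 ± 3.59, Sycp3 at 30.3 ± 4.81 and Dazl at 25.04 ± 4.09 CPM. Myh6, Ckm, Acta1, Myod1, Prm1, Prm2, Ins1, Ins2, Pdx1, Cpa1, Krt5, Krt14, Ivl and Flg had none.

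Of 1117 olfactory receptor genes, 49 (4.39%) had a peak and 4 a promoter peak. Of 357 vomeronasal receptor genes 10 had a peak, of 56 keratin-associated protein genes 3, and of 42 beta-defensin genes 3, and none of these had a promoter peak. The 39 Hox genes, which pattern the body axis behind the forebrain, had 14 with a peak and 3 with a promoter peak, at a median of 6.51 CPM, led by Hoxc4 at 22.3 ± 3.14, Hoxa10 at 14.04 ± 2.59, Hoxa7 at 11.99 ± 2.08 and Hoxa11 at 7.93 ± 1.22 CPM. The largest sum in these families belonged to Vmn1r2, with 40 peaks and 528 ± 96.2 CPM. None of those peaks lay in the gene: they began 81734 bp from its start site, on chromosome 4 between 3050058 and 3090544. Olfr161 likewise had 12 peaks and 132 ± 18.4 CPM at 345235 bp or more from its start site, on chromosome 16 between 3231489 and 3247290. Olfr1423 had 136 ± 6.65 CPM over 12 peaks, none in its body, and Olfr111 had 95.6 ± 2.58 CPM over 6 peaks with 1 in its body.

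The strongest single peaks of the whole list were mostly repeated DNA. Of the 15 with the highest mean CPM, 9 lay in Rn45s, the 45S ribosomal RNA gene, on chromosome 17 between 39843278 and 39848812. The highest (chr17:39843575-39844261) had 547.7, 795.7, 642.4 and 649.3 CPM in replicates 1 to 4, a mean of 659 ± 102 CPM. The densest, at 399 bp from the start site, had 1198 CPM per kb. Ribosomal genes are present in many copies, so accessibility per copy and number of copies cannot be told apart. Replicate 2 was the highest in all 9 peaks, and Rn45s summed to 2444, 3741, 2915 and 2992 CPM. Satellite repeats followed the same order of libraries at their ends, with 2525, 4292, 3781 and 3193 CPM, as did sequences not placed on a chromosome, with 3329, 5821, 4658 and 4107 CPM. Replicate 2 also had the lowest share of tags in peaks and replicate 1 the highest.

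Among the other 6 of the 15, the Pisd-ps3 promoter had 213 ± 24.9 CPM on a sequence not placed on a chromosome. The Fam72a promoter had 188.5 ± 14.5 CPM, in a peak that also meets the promoter window of Srgap2, a regulator of neuronal spines. Sp1, the gene of a factor that reads GGGCGG, had 189.0, 194.3, 178.9 and 184.2 CPM at its promoter. The promoters of Mylpf and Rfx1 had 168.5 ± 3.42 and 154 ± 11.3 CPM, and a site at -3932 bp of the clock gene Per1 had 152.5 ± 7.25 CPM. The Mylpf promoter ranged from 164.6 to 172.0 CPM over the 4 libraries.

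Outside ribosomal RNA, satellites, simple repeats, LTRs and unplaced sequences, a choice made after the values were seen, 13 of the 15 strongest peaks were promoters. After those above came Rab40c at 152.2 ± 8.58, Stip1 at 150.8 ± 21.9 (120.5 to 172.9), Evi5l at 145.6 ± 6.08, Mtmr4 at 145.0 ± 6.66, Map3k3 at 138.0 ± 7.99, Ap2a1 at 137.6 ± 13.6, Mxd4 at 137.0 ± 4.95, Ing1 at 134.2 ± 7.61 and Rps6ka5 at 131.9 ± 11.7 CPM. Stip1 is a co-chaperone, Ap2a1 an endocytic adaptor subunit and Map3k3 a MAP kinase kinase kinase. None of these genes is a member of the lists above. The remaining one was an intergenic site at -106992 bp of Dtnbp1 with 147.0, 130.02, 115.1 and 138.3 CPM.

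The strongest intronic peaks were in Kat6b, a histone acetyltransferase gene, at 128.7 ± 8.10 CPM in a CpG island, Sfi1 at 118 ± 33.9 CPM, Sipa1l1 at 116.4 ± 12.1 CPM, Lrrfip1 at 114.4 ± 6.18 CPM and Gm10677 at 113.9 ± 7.82 CPM. The intronic peak of Csf1r had 109.9 CPM. Of the 5 strongest intergenic peaks, those nearest 4933422A05Rik and Lrrc4c were satellites, with 145 ± 32.3 and 140 ± 30.3 CPM, and 1 near Sfi1 was an LTR with 131 ± 42.2 CPM. The Lrrc4c peak lay 1195138 bp from that start site.

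By number of peaks, Pisd-ps3 led with 114, on unplaced sequence. After it came Elmo1, an adaptor for engulfment and migration, with 66, Frmd4a with 64, Runx1 with 61, Ldlrad4, an inhibitor of TGF-beta signalling, with 54, and Rreb1 and Tbc1d22a with 48 each. Etv6, Gm17746, Tns3 and Bcor had 47 each, A630001O12Rik and Chd7 46 each, and Fam49b and Sipa1l2 45 each. Of all genes with a peak, 4716 (29.3%) had a single peak and 351 had 20 or more, and these 351 held 13.9% of the tags of named peaks. Genes with a single peak had a median length of 14.1 kb and those with 20 or more a median of 87.2 kb. Across 16078 genes the rank correlation of number of peaks with gene length was 0.229, a description over genes that are not independent.

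The strongest peak was at the promoter for 54.0% of genes with a single peak, 36.0% of those with 5 to 9 peaks and 16.5% of those with 20 or more. Genes with 20 or more peaks had a promoter peak in 81.5% of cases. Their strongest peak had a median of 187 CPM per kb, against 38.6 CPM per kb for genes with a single peak. A maximum over more peaks is larger by construction.

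By summed tags, Rn45s at 3023 ± 536 CPM, Pisd-ps3 at 2889 ± 725 CPM and Sfi1 at 1231 ± 346 CPM led, and their libraries spread widely, with Sfi1 at 833.5, 1677, 1222 and 1193 CPM. Then came A630001O12Rik at 828 ± 78.2, Runx1 at 809 ± 34.5, Marcks, a substrate of protein kinase C, at 767.5 ± 54.3, Ldlrad4 at 754 ± 63.0, Plekho2 at 750.1 ± 51.8, Chd7, a chromatin remodeller, at 749 ± 30.3 and Jun at 746 ± 83.4 CPM. Frmd4a at 715 ± 34.2, Elmo1 at 692.5 ± 28.0, Etv6 at 678 ± 16.5, Gm17746 at 668 ± 69.8 and A530013C23Rik at 668 ± 27.9 CPM closed the 15. From Marcks to Jun the ranges over libraries overlapped, so that order was within the spread. The Runx1 range also overlapped those of Marcks, Ldlrad4, Plekho2 and Jun, but not that of Chd7. Within each library Runx1 was above Marcks and Plekho2, while Ldlrad4 and Jun each exceeded it in a single library. Gm17746 and A630001O12Rik are short transcripts of 3.10 and 2.82 kb. None of the 47 Gm17746 peaks and 2 of the 46 A630001O12Rik peaks lay in the gene body. The protein-coding gene within 50 kb of the Gm17746 peaks was Id2, an inhibitor of DNA-binding factors.

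The Pearson correlation of log2(CPM + 1) across the 67822 peaks lay between 0.860 and 0.880 over the 6 pairs of libraries, and the Spearman correlation between 0.847 and 0.866. These correlations are across peaks, which are not independent replicates, and the libraries share their peak list. Among peaks with a mean of at least 10 tags, 91.5% to 93.3% of values lay within 2-fold of each other in each pair. The chi-square per degree of freedom was 1.33 to 1.76 in every pair, so no library repeated another within sampling noise. Replicates 3 and 4 were the closest pair by correlation.

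At low counts, the spread was near the size that counting alone gives. The median coefficient of variation was 37.0% for peaks under 10 tags, where counting alone gives 35.5%, and 27.3% from 10 to 20 tags, where it gives 27.2%. It was 14.6% against 12.5% from 50 to 100 tags, and 11.7% against 9.12% for the 1945 peaks with 100 tags or more. A median coefficient of variation over 4 libraries tends to fall below the true one. These gaps are therefore likely too small and do not measure the spread beyond counting. The common dispersion from edgeR over 56446 peaks corresponded to a coefficient of variation of 12.9% beyond counting. Of the 15 strongest peaks of each library, 10 were shared by all 4. Of the 100 strongest 42 were shared, and of the 1000 strongest 534.

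**Figure D5:**
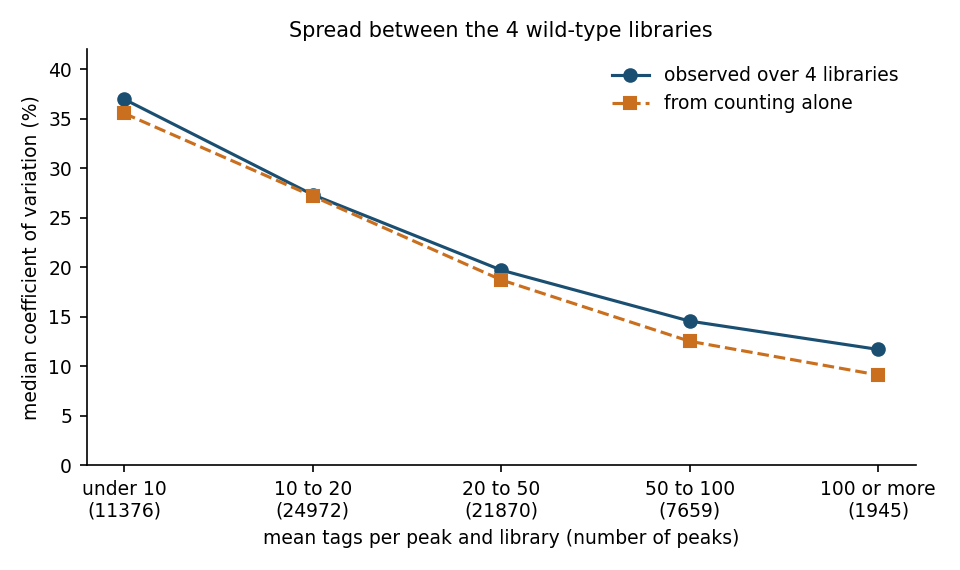
Median coefficient of variation over the 4 wild-type libraries (circles) and the value counting alone gives (squares), by mean tags per peak and library, with the number of peaks in brackets. The lines lie closest at 10 to 20 tags, 27.3% against 27.2%, and separate to 11.7% against 9.12% at 100 tags or more. A median over 4 libraries tends to fall below the true coefficient, so the gaps are likely too small.

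A few peaks varied far beyond this. Of the 10 with the largest coefficient of variation among peaks with a mean of at least 20 tags, 3 lay on chromosome Y: the promoters of Uty and Ddx3y and a site near 1700020D14Rik. The Ddx3y promoter had 0, 0, 63 and 67 tags in replicates 1 to 4, and the Uty promoter 0, 0, 42 and 43. All 7 chromosome Y peaks together held 9, 13, 201 and 255 tags. Chromosome X peaks held 13714, 13914, 12685 and 13135 CPM, highest in the 2 libraries without tags at Uty and Ddx3y. Replicates 1 and 2 thus differed from 3 and 4 at Y-linked sites, and no label groups them so.

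A second set split the libraries another way. Peaks near Col19a1 on chromosome 1 had 51.1, 3.39, 66.5 and 4.01 CPM and, at a neighbour, 21.7, 1.35, 30.5 and 2.23 CPM. The Tmem267 promoter on chromosome 13 had 21.2, 1.35, 27.8 and 1.78 CPM, and a peak at Ccl28, a chemokine gene beside it, 25.6, 6.77, 39.8 and 5.80 CPM. Of the 20 peaks assigned to those 2 genes, 17 were higher in both replicates 1 and 3 than in both 2 and 4, and their sum was 263, 121, 438 and 80.3 CPM. The other peaks of the 10 were at 1700030C10Rik, highest in replicate 2 at 27.8 CPM, and at 4933417E11Rik and the folate receptor gene Folr2, highest in replicate 4 at 31.2 and 34.3 CPM.

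A search added after the values were seen looked for peaks with at least 20 tags in 3 libraries and at most 2 in the other, and found 6. Of these, 5 were low in replicate 4 and 1 in replicate 2. The clearest was in the 3′ UTR of Arf2, a vesicle transport gene, with 68.9, 75.8, 53.4 and 0.892 CPM. The peaks in an intron of Spen, near 1700083H02Rik, near Camk2n1 and at the promoter of Trim30d also had 0 to 0.892 CPM in replicate 4 alone. The site assigned to Id2 had 33.3, 1.35, 32.7 and 20.96 CPM.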

How the data were processed

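ATAC-seq tags were analysed in the 4 wild-type libraries. Per the submitters' processing notes, reads were handled with Bowtie2, HOMER and DESeq2 on mm10, with no versions. The authors' table gives raw counts of tags per peak, over IDR lists of both genotypes merged by them, with at most 3 tags taken per position, per the file headers. A second deposited table holds the signal scaled by the authors to 10000000 tags per library, which equalled the scaled counts within 0.005. Whether reads were shifted for the transposase, and how duplicates were handled beyond that limit, is not given in the sources used here. Libraries were cut from gels at 165 to 250 bp and read single-end for 51 cycles, per the labels' protocols.

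CPM over all listed peaks, per peak and summed per deposited gene name, were computed with pandas 2.3.3 and numpy 2.4.6. Peaks without a name (117) were left out of gene sums. Gene IDs of 16082 of 16095 genes matched RefSeq. With 1 group, no test between groups was made, and Dixon's ratio and a chi-square per pair only describe the libraries. edgeR 4.0.16 and DESeq2 1.42.0 gave scaling factors and dispersion, tested on simulated data. The members and lists were chosen with earlier results of these data known. Named by rule were the 15 highest peaks, 10 densest, 5 highest per main class, 10 most variable (mean of at least 20 tags), the 15 genes with most peaks and with most tags, the 5 markers and the 4 highest and the peakless members of each list. A few genes that this rule names are not reported here. Spi1, C1qa, C1qc, Hpgds, Trem2, Apoe, Gusb, Casp1, Naip5, Slco2b1, Rapgef5 and the genes shown by sequence were picked after their values were seen. The 4 libraries limit the precision.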

Additional observations from a re-analysis of the deposited data

Results flagged for a closer look

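Of 92 values looked at over the 4 libraries, 9 (9.78%) had 1 library set apart from the other 3 by a gap above the 95% critical ratio of Dixon's test. Chance alone sets apart about 1 in 20 such groups.

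Among annotation classes, exon peaks held 1.83% of tags in replicate 4, against 1.89% to 1.90% in the others, and peaks at transcript ends held 1.74% in replicate 1, against 1.62% to 1.63%. Among gene lists, endothelial and mural genes summed to 841 CPM in replicate 1, against 790 to 794 CPM. Monocyte and granulocyte genes summed to 572 CPM in replicate 2, against 494 to 501 CPM. The strongest peak of their member Ly6c2 had 43.4, 103.6, 69.8 and 66.0 CPM in replicates 1 to 4. That peak lay outside the gene, 25017 bp from its start site, and its part in the list total was not tested. Lymphocyte genes summed to 476 CPM in replicate 4, against 455 to 458 CPM.

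Among genes, Frmd4a summed to 766 CPM in replicate 2, against 696 to 700.2 CPM, and Chd7 to 704 CPM in replicate 3, against 759 to 769.9 CPM. Among peaks, the Rfx1 promoter had 137 CPM in replicate 1, against 159.8 to 160.1 CPM, and the intronic Sipa1l1 peak had 134.5 CPM in replicate 1, against 109 to 112 CPM.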

How the results depend on the processing

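Of 450 values recomputed for 40 results under 14 settings, 412 stayed within set limits and 38 moved. Counts were held to 1.5 times, and most other values to their SD over the single libraries. The lowest Pearson r was held to the SD over pairs of libraries, and the median coefficient of variation to a fixed ratio. Reversals were not scored. Counts of genes with a peak and of members with a promoter peak depend only on the peak list. They could not change when a library was left out or the scaling changed, and such values are among the 412. With peaks of the wild-type list only, the strongest 10% of peaks held 31.9% of tags, and promoter peaks numbered 0 for neuronal, 1 for astrocyte and 3 for oligodendrocyte genes. With peaks of at least 10 mean tags, these values were 30.7%, 0, 1 and 2, and Hox genes had 1. Scaled to all tags, 2 endothelial genes passed the 90th percentile, the lowest Pearson r was 0.895 and the median coefficient of variation 32.5%. Per kb, 2 of the 15 highest peaks were promoters. Counting promoter peaks only, 10 microglia identity genes, 9 myeloid factors and 5 immediate early genes passed the 90th percentile, with 0 neuronal, 0 astrocyte, 0 oligodendrocyte and 0 endothelial genes, and the microglia median was 1.68 times that of all genes. Without wild-type replicate 2 or 3, 2 endothelial genes passed, a range of 1 to 2.

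Chosen after seeing the data, leaving out repeats and unplaced sequence put 0 Rn45s peaks and 13 promoters among the 15 highest, of which 5 were shared with the full list, with 25.3% of tags intergenic, and 2 endothelial and 1 olfactory receptor gene above the 90th percentile. Within 100 kb of a start site, 8 of the 15 genes with most peaks and 8 of the 15 with most tags remained, with 0 neuronal, 2 endothelial and 1 olfactory receptor gene above. The causes were not tested. No paired analysis was possible because only 1 group was described. Counting error limits peaks under 20 tags.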
